A study of Mus musculus with 27 samples.

Results

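Kruppel-like factors are zinc finger transcription factors, and 9 of their genes were followed here through 9 warm ischemia times of the mouse kidney: Klf2, Klf3, Klf4, Klf5, Klf6, Klf9, Klf10, Klf13 and Klf15. They were taken by symbol from the 19392 genes of the deposited expression table, all 9 were found, and all 9 were among the 18188 genes that passed the filter of more than 0 FPKM in at least 3 kidneys. FPKM is a count of fragments scaled to the length of the transcript and to the size of the library, a level that can be compared between genes. RNA-Seq was performed on the left kidneys of 27 wild-type C57BL/6 mice, with 3 mice at each time. The pedicle of the left kidney was clamped for 16, 18, 20, 22, 24, 26, 28 or 30 min on a 37°C platform, and in the sham group, given as 0 min, it was not clamped. The right kidney was excised to induce this model, and every left kidney was collected after 24 h, so all values describe 1 point of recovery. The paper counts the 0 min group among the groups of the model. It does not state separately that the sham mice also lost the right kidney. Each kidney came from a different mouse, and the age of the mice is not given in the sources used here.

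Kruppel-like factors bind CACCC and GC-rich elements in promoters through their zinc fingers and turn genes on or off with partners such as CtBP, Sin3A and histone acetyltransferases. Klf9 and Klf15 are induced by glucocorticoid, and Klf15 is a kidney-rich regulator of amino acid and glucose metabolism. Klf2 and Klf4 are the flow-responsive factors of quiescent endothelium, while Klf4 is also found in podocytes and in differentiated epithelium. Klf5, Klf6 and Klf10 are associated with growth, injury and TGF-beta signals.

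The promoters of members that moved in opposite directions with ischemia are shown to set their sequence elements side by side. Each line holds the 250 bases before the RefSeq start on the strand of the gene (GRCm38.p6), 5′ to 3′, and capitals mark every match, on either strand, to CACCC, to the GC box CCGCCC, or to the AP-1 element TGANTCA, where a run of capitals can hold overlapping matches. Klf15 and Klf9 were lower after ischemia, and Klf6, Klf4 and Klf2 were higher at 30 min. The Klf15 window lies at chr6:90462326-90462575 on the plus strand, the Klf9 window at chr19:23140976-23141225 on the plus strand, the Klf6 window at chr13:5861239-5861488 on the plus strand, the Klf4 window at chr4:55532476-55532725 on the minus strand, and the Klf2 window at chr8:72318812-72319061 on the plus strand. The Klf15 window lies inside the annotated span of the gene, which has an earlier start.
Klf15: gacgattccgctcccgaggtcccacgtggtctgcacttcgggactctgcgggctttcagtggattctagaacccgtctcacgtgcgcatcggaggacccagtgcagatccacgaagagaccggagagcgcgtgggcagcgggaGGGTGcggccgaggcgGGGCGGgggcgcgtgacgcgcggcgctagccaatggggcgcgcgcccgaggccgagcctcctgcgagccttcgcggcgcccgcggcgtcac
Klf9: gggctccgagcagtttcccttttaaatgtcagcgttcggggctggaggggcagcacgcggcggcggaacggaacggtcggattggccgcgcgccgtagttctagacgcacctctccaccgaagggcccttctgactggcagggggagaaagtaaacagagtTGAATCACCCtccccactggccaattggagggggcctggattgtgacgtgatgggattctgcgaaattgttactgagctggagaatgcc
Klf6: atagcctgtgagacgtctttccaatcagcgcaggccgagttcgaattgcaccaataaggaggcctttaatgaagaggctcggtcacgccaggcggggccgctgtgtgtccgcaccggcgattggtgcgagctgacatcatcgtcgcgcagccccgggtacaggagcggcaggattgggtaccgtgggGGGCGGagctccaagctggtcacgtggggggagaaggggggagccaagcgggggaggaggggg
Klf4: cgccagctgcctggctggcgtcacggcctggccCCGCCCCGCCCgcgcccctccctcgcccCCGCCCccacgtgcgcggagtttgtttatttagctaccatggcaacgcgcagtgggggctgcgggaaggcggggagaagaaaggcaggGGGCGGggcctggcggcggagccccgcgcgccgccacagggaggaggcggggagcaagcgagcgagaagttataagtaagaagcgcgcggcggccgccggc
Klf2: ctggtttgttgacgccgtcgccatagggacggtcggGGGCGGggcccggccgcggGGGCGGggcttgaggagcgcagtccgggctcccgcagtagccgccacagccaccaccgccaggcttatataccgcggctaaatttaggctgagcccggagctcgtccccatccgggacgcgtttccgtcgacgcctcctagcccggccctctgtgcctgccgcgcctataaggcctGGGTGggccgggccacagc
The table of RefSeq promoters held 7 of the 9 members, and Klf5 and Klf10 were not in it. CACCC was found in 5 of these 7 windows and in 52.0% of all 32851 windows of the same length, and CCGCCC was found in 6 of 7 and in 32.7% of all. The AP-1 element was found in 1 of 7, the Klf9 window, where it overlapped a CACCC match, and in 6.75% of all windows. The CRE TGACGTCA was found in 0 of 7 and in 1.55% of all windows, and the palindromic glucocorticoid response element in 0 of 7 and in 3 of all 32851 windows. Of the printed windows, Klf4 held 4 GC boxes, Klf2 held 2, Klf6 and Klf15 held 1 each, and Klf9 held 0. These are matches of letters within short windows and were not tested for binding.

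In the same annotation, Klf2 (chr8:72319062-72321654) was the shortest of the 9 genes at 2593 bp, and Klf13 (chr7:63886351-63938915) the longest at 52565 bp. The span of Klf13 holds, on the opposite strand, E030018B13Rik, which is also in the expression table. Whether the counting used strand is not given in the sources used here, so reads from these overlapping genes may not be told apart. The number of reads behind each value is unknown, and the precision was judged from the 3 kidneys of each group. The summed FPKM per kidney ranged from 512453 to 554036. The labels were checked with the tubular injury genes Havcr1 and Lcn2, which were DEGs, higher, at every ischemia time against 0 min, and at 16 min by 4.71 (SE 0.74) and 2.99 (SE 0.78) on the log2 scale. The kidney 16 min replicate 3 stood apart, with 35.1 FPKM of Havcr1 against 332 and 574 FPKM in the other kidneys at 16 min. The summed FPKM of Havcr1 and Lcn2 ranged from 11.9 to 85.6 in sham kidneys and from 66.5 to 985 at 16 min. The check therefore did not separate every 16 min kidney from every sham kidney, whereas the sums at the longer times lay above all sham kidneys. Fat markers (Adipoq, Plin1, Cfd, Lep) summed to 193 FPKM in 18 min replicate 1, to 142 FPKM in 22 min replicate 3, to 53.8 FPKM in 20 min replicate 1, and to no more than 17.5 FPKM in the other 24 kidneys.

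In sham kidneys Klf9 and Klf15 were the most abundant of the 9 genes, at 45.8 ± 4.08 and 45.4 ± 0.35 FPKM (SD, n = 3), and their values overlapped. Klf3 (14.5 FPKM) and Klf6 (12.1 FPKM) followed, overlapping each other, then Klf2 (7.52 FPKM) and Klf13 (6.49 FPKM), which overlapped, then Klf10 (3.33 FPKM) and Klf4 (2.99 FPKM), which overlapped, and Klf5 was lowest at 0.82 FPKM. After 30 min the order had changed. Klf6 was highest at 49.9 FPKM and lay apart from Klf9 at 34.8 FPKM, and the mean of Klf15, 17.8 FPKM, was below those of Klf2 and Klf3 as well. Its kidneys lay apart from those of Klf3 and overlapped those of Klf2. At 28 min Klf6 (32.1 FPKM) was already first by its mean, but its kidneys overlapped those of Klf9 (29.1 FPKM). Klf5 was the lowest member by its mean at all 9 times.

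**Figure D1:**
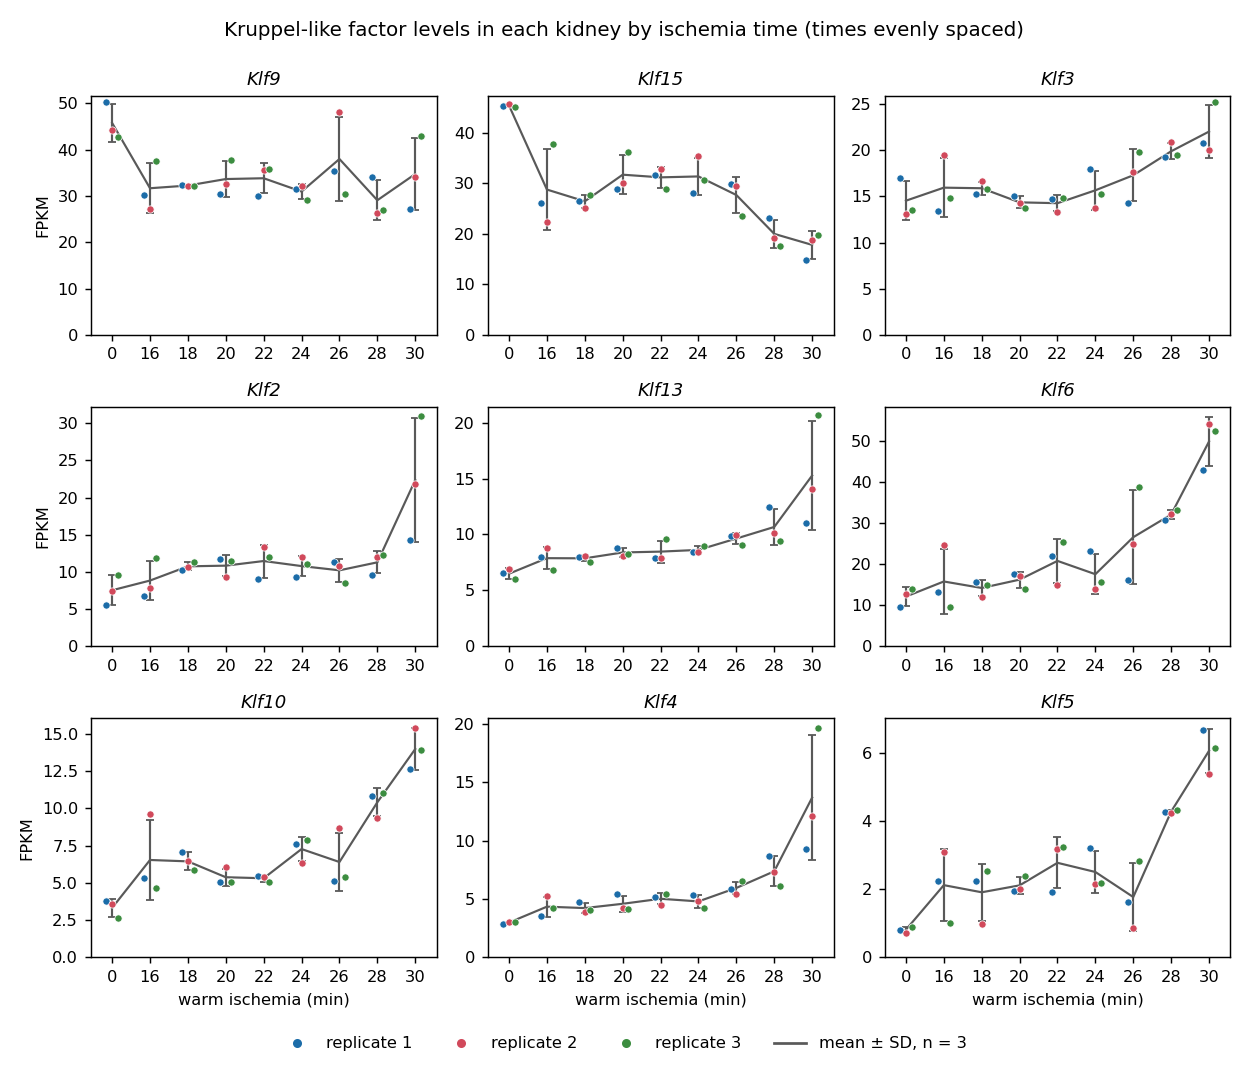
FPKM of each Kruppel-like factor gene in each of the 27 kidneys against warm ischemia time in minutes, with times drawn evenly spaced. Points are single kidneys coloured by replicate number, and lines join the group means with SD bars (n = 3). Klf9 and Klf15 are highest in sham kidneys, and Klf6 runs from 12.1 FPKM at 0 min to 49.9 FPKM at 30 min.

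The makeup of the family shifted with ischemia time. Klf9 and Klf15 together held 65.6% ± 1.78 (SD, n = 3) of the summed FPKM of the 9 genes in sham kidneys, 49.7% ± 10.2 after 16 min and 45.8% ± 7.45 after 26 min. Their share was 33.7% ± 3.11 after 28 min and 26.8% ± 0.42 after 30 min. The sham kidneys ranged from 63.9% to 67.4%, and the 30 min kidneys from 26.3% to 27.1%, so the groups did not overlap. Klf6 alone went from 8.72% ± 1.76 to 25.7% ± 2.72 over the same range. The summed FPKM of the 9 genes was 139 ± 2.59 in sham kidneys, 122 ± 11.1 after 16 min, 145 ± 6.91 after 28 min and 196 ± 36.0 after 30 min. The sum at 30 min was therefore larger than at 0 min in each kidney (at least 160 against at most 142 FPKM), while the share of Klf9 and Klf15 was less than at any other time by its mean.

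**Figure D2:**
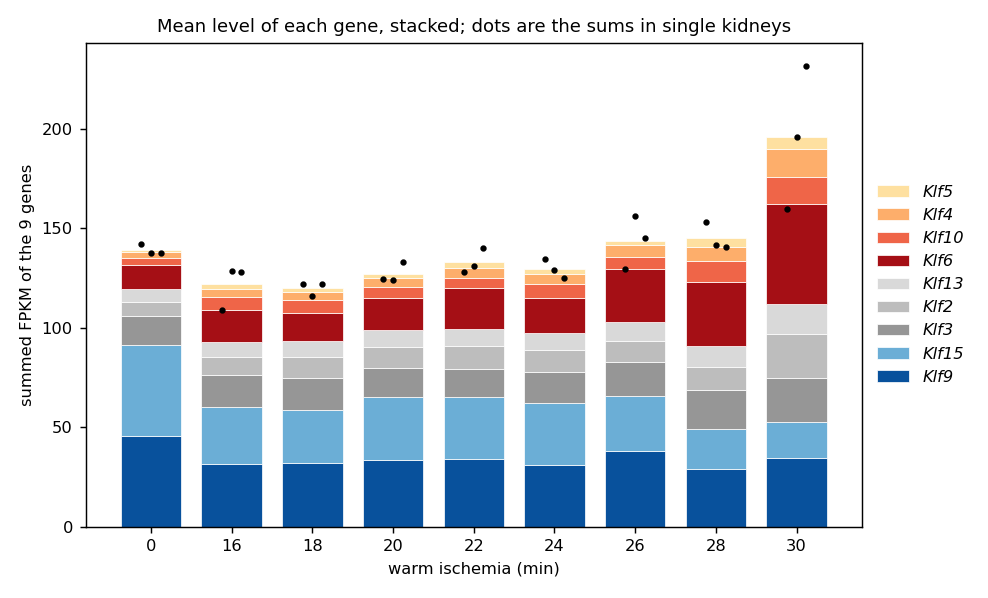
Stacked mean FPKM of the 9 genes by warm ischemia time (n = 3 per bar), with black dots for the sum in single kidneys. The blue part (Klf9 and Klf15) takes 65.6% of the sum at 0 min and 26.8% at 30 min.

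Values were compared on the log2(FPKM + 1) scale after quantile normalization with limma. A gene passed the test at a Benjamini-Hochberg adjusted p-value under 0.05 over all 18188 genes, and was called a DEG when its absolute log2 fold change was also above 1. All comparisons with 0 min share the same 3 sham kidneys. In whole tissue, fewer cells of a type and less RNA per cell cannot be told apart. At 16 min, 3 of the 9 members passed the test, against 19.0% of all genes tested, and 0 were DEGs, against 2.25%. At 18, 20, 22 and 24 min, 3, 2, 3 and 4 members passed, against 27.8%, 22.8%, 28.8% and 28.3% of all genes, and 0 were DEGs at each of these times, against 3.06%, 2.51%, 3.29% and 3.12%. At 26 min, 5 passed, against 30.1%, and 0 were DEGs, against 3.77%. At 28 min, 7 passed, against 48.2%, and 4 were DEGs (Klf5, Klf6, Klf10 and Klf15), against 8.48%. At 30 min, all 9 passed, against 52.3%, and 6 were DEGs (Klf2, Klf4, Klf5, Klf6, Klf10 and Klf15), against 10.7%. The median log2 fold change of the members was 0.14 for 16 min, 0.50 for 28 min and 1.33 for 30 min, beside medians over all genes that were within 0.01 of 0 at each of these times. Across all 9 times, all 9 members passed limma's moderated F test, against 55.1% of all genes, with adjusted p-values from 4.01e-06 for Klf4 to 0.0411 for Klf9. The F test of Klf9 did not hold under several alternatives, with an adjusted p-value of up to 0.174 when single kidneys were left out and of 0.0571 without quantile normalization.

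**Figure D3:**
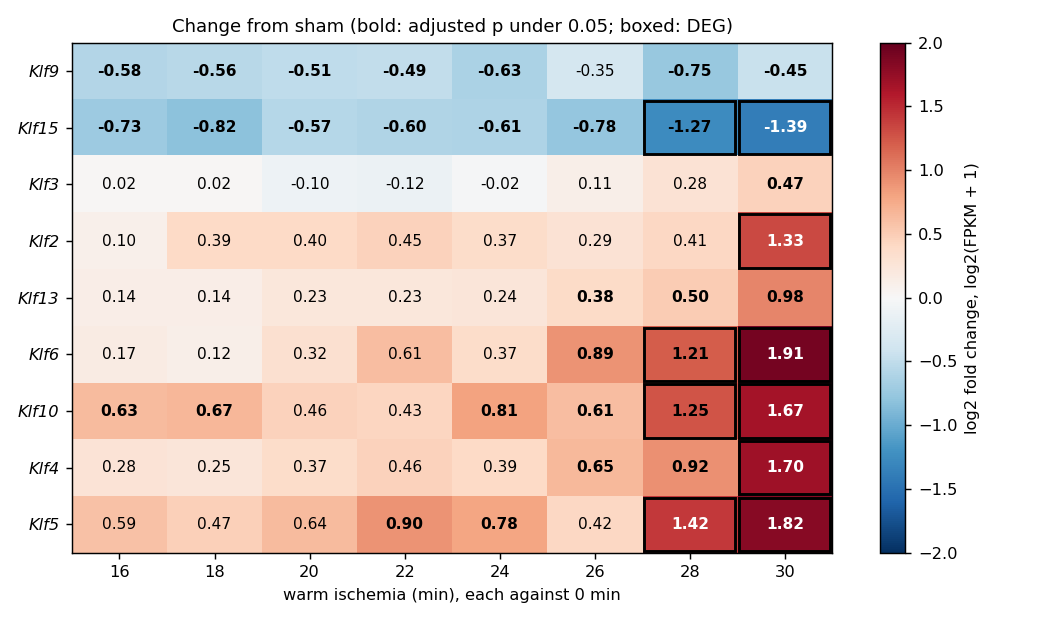
Log2 fold change of each gene at each ischemia time against 0 min, on the log2(FPKM + 1) scale. Numbers in bold have an adjusted p-value under 0.05 and boxed cells are DEGs. No cell from 16 to 26 min is boxed, 4 are boxed at 28 min and 6 at 30 min.

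Klf15 was lower at every ischemia time and passed the test at each. The sham kidneys held 45.3, 45.8 and 45.1 FPKM, the 16 min kidneys 26.2, 22.4 and 37.7 FPKM, and the 18 min kidneys 26.4, 25.2 and 27.7 FPKM. From 20 to 26 min the 12 kidneys lay between 23.6 and 36.2 FPKM. The 28 min kidneys held 23.1, 19.3 and 17.6 FPKM and the 30 min kidneys 14.8, 18.8 and 19.9 FPKM. All 24 clamped kidneys were below all 3 sham kidneys, the highest being 16 min replicate 3, the kidney with little Havcr1. How many of all genes separated clamped from sham kidneys in this way was not counted. Klf15 fell by 0.73 (SE 0.16) on the log2 scale at 16 min (adjusted p = 0.00348), by 0.78 at 26 min (adjusted p = 0.00105), by 1.27 at 28 min (adjusted p = 2.22e-06) and by 1.39 at 30 min (adjusted p = 4.3e-07). The mean at 30 min was 0.392 times the sham mean. The only one of these times at which the call was lost by leaving out a kidney was 20 min, where the adjusted p-value was 0.0647 without 20 min replicate 1 and 0.0522 without 20 min replicate 2.

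Klf9, which mediates glucocorticoid and thyroid hormone responses, was lower too, with means between 29.1 and 38.0 FPKM at the ischemia times. The sham kidneys held 50.4, 44.3 and 42.7 FPKM, the 16 min kidneys 30.2, 27.2 and 37.6 FPKM, and the 18 min kidneys 32.3 FPKM each. From 20 to 24 min the 9 kidneys lay between 29.2 and 37.9 FPKM. The 26 min kidneys held 35.4, 48.2 and 30.4 FPKM, the 28 min kidneys 34.0, 26.3 and 26.97 FPKM, and the 30 min kidneys 27.3, 34.0 and 42.9 FPKM. The 26 min group overlapped the sham group through replicate 2, and the 30 min group through replicate 3. Klf9 passed the test at every time but 26 min, falling by 0.58 (SE 0.17) on the log2 scale at 16 min (adjusted p = 0.0234), by 0.75 at 28 min (adjusted p = 0.0012) and by 0.45 at 30 min (adjusted p = 0.035). Between 28 and 30 min together and 16 to 26 min together, Klf9 differed by -0.08 (SE 0.10, adjusted p = 0.542), while Klf15 fell by 0.64 (SE 0.09, adjusted p = 6.45e-06). With single kidneys left out, the adjusted p-value of Klf9 reached 0.132 at 16 min and 0.22 at 30 min, and the call at 16 min was lost without 0 min replicate 1 or 2 or 16 min replicate 1 or 2. At 30 min it was lost without 0 min replicate 1 or 2 or 30 min replicate 1 or 2. The calls at 18, 20 and 22 min were lost in 3, 5 and 5 of 6 such fits (adjusted p up to 0.0815, 0.14 and 0.135), and those at 24 and 28 min in none. At 26 min Klf9 passed the test without replicate 2 (-0.55, adjusted p = 0.0244).

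Genes that respond to glucocorticoid, the class to which Klf9 and Klf15 belong, went the other way at 30 min. Of 10 such genes on a list that includes the receptor Nr3c1, 0 passed the test at 16 min, when 19.0% of all genes did. At 28 min 3 of the 10 were higher, near the share of 24.5% of all genes. At 30 min 8 were higher, when 26.9% of all genes were. The median log2 fold change of the list was 0.44 at 28 min and 1.47 at 30 min. Fkbp5, a co-chaperone of the receptor, held 17.3, 19.9 and 18.3 FPKM in sham kidneys and 31.9, 46.1 and 94.4 FPKM at 30 min, and rose by 1.41 (SE 0.35, adjusted p = 0.00175). Zbtb16, a zinc finger repressor, held 0.72, 0.61 and 0.77 FPKM in sham kidneys and 3.29, 5.79 and 13.4 FPKM at 30 min, and rose by 2.03 (SE 0.44, adjusted p = 0.000607). The receptor gene Nr3c1 fell by 0.53 at 30 min. The circadian gene Per1 (1.74), the kinase gene Sgk1 (1.49), the phosphatase gene Dusp1 (1.45), Pdk4 (1.77), Cebpd (2.05) and Errfi1 (0.46) rose at 30 min on the log2 scale, and Tsc22d3 differed by 0.52 (SE 0.31, adjusted p = 0.174). Without 30 min replicate 3, which had the highest Fkbp5, Zbtb16, Klf9 and Klf15 of its group, 7 of the 10 genes were higher at 30 min (Errfi1 was lost), and Fkbp5 rose by 0.95 (adjusted p = 0.0173).

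Within a given ischemia time, the correlations of these genes with Klf9 and Klf15 ran from positive to negative. After subtracting the mean of each time from the 27 kidneys, Tsc22d3 correlated with Klf15 at r = 0.81 and with Klf9 at r = 0.73, and Fkbp5 with Klf15 at r = 0.55 and with Klf9 at r = 0.72. At the low end of the list, Pdk4 had r = -0.43 with Klf15 and r = 0.0045 with Klf9, Cebpd had r = -0.56 and r = -0.16, and Nr3c1 had r = 0.022 and r = -0.013. Over the 27 kidneys as they were, Fkbp5 and Klf15 had r = -0.29. These are descriptions of kidneys that share their group means and a common normalization. The injury gene Havcr1 had a negative correlation within times, with r = -0.72 with Klf15 and r = -0.48 with Klf9. At 16 min, replicate 3 had the most Klf9, Klf15 and Tsc22d3 (35.0 FPKM against 19.3 and 14.8 FPKM) and the least Havcr1.

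Thyroid hormone genes, to which Klf9 also responds, were mixed. Of 5 listed genes, 3 were lower and 1 was higher at both 28 and 30 min, when 23.6% and 25.4% of all genes were lower and 24.5% and 26.9% higher. The receptor gene Thra fell by 0.92 at 16 min and by 1.11 at 30 min, Thrb fell by 0.65 at 30 min, and the deiodinase gene Dio1 differed by -0.03 (SE 0.15) at 16 min and fell by 1.37 at 30 min. Hr, a nuclear receptor corepressor, rose by 0.87 at 30 min from 0.11 FPKM. Thrsp did not pass at either time, with -1.09 (SE 0.74) at 28 min.

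Metabolic genes tied to Klf15 were lower as a group at the longer times. All 7 listed genes passed the test as lower at 28 min, when 23.6% of all genes did, 6 of 7 at 30 min, when 25.4% did, and 2 of 7 at 16 min, when 9.61% did. The median log2 fold change of the list was -0.91 at 28 min. Bckdha, a subunit of the branched-chain ketoacid dehydrogenase, held 149, 156 and 154 FPKM in sham kidneys, 61.4, 66.6 and 66.3 FPKM at 28 min and 49.98, 62.5 and 52.8 FPKM at 30 min, and fell by 1.43 (SE 0.08, adjusted p = 6.43e-11) at 30 min. Slc2a4, the insulin-responsive glucose transporter, fell by 1.74 (SE 0.34) at 28 min and by 1.37 at 30 min, where replicate 3 held 13.1 FPKM against 4.25 and 4.06 FPKM in the others. Gpt, alanine aminotransferase, differed by 0.02 (SE 0.17) at 16 min and fell by 0.87 at 28 min. Bckdhb (-1.11) and the branched-chain aminotransferase gene Bcat2 (-0.88) fell at 30 min as well, as did Tat (-0.20), a gene at 0.22 FPKM in sham kidneys. Prodh, proline dehydrogenase, fell by 0.68 at 16 min and differed by -0.41 (SE 0.17, adjusted p = 0.0505) at 30 min. The summed FPKM of 5 proximal tubule markers (Slc34a1, Lrp2, Cubn, Slc5a2, Slc22a6) was 2820 ± 186 in sham kidneys and 2597 ± 538 after 16 min. These groups overlapped (2613 to 2974 and 2037 to 3110 FPKM). The sum was 1147 ± 72.3 after 28 min and 687 ± 52.2 after 30 min. At 30 min without replicate 3, Slc5a2 differed by -0.22 (adjusted p = 0.57), while the other markers fell. The part of these markers in the differences of Klf15 and its linked genes was not tested.

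**Figure D4:**
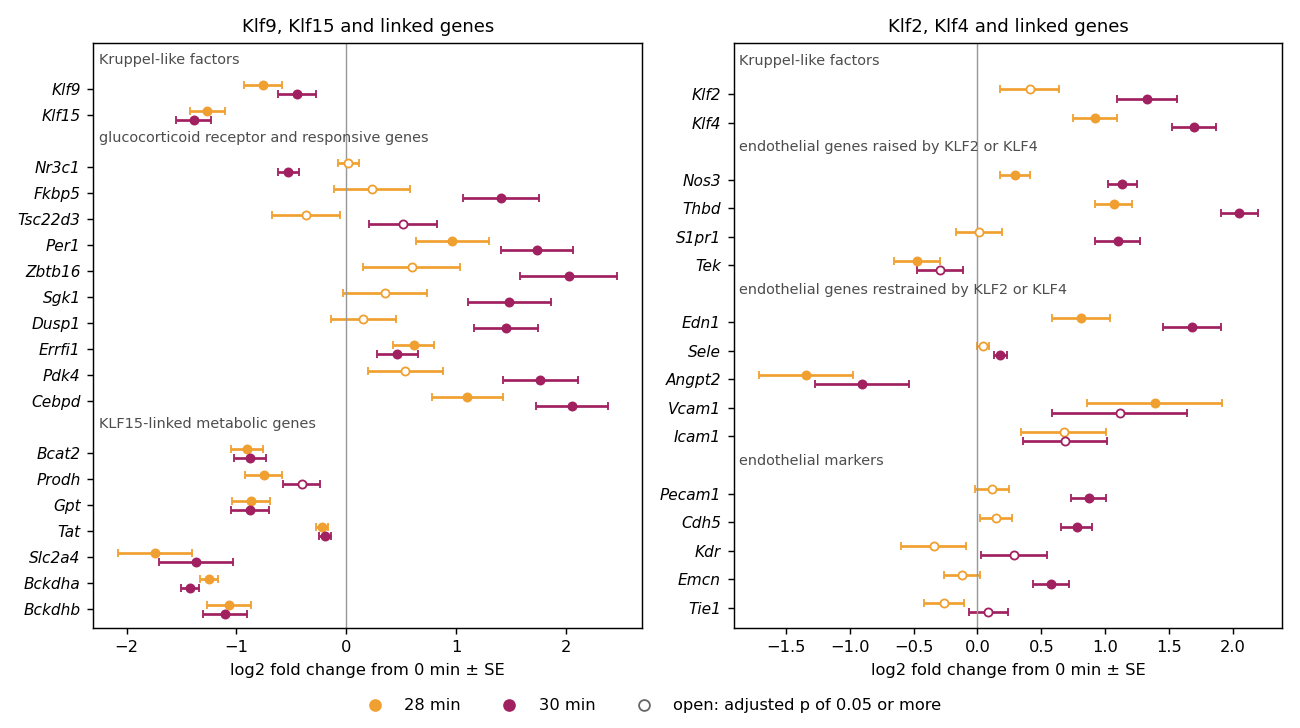
Log2 fold change from 0 min with its SE at 28 min (orange) and 30 min (purple), for Klf9, Klf15 and genes linked to them (left) and for Klf2, Klf4, endothelial genes linked to them and endothelial markers (right). Filled points have an adjusted p-value under 0.05. At 30 min most glucocorticoid-responsive genes lie to the right of 0 while Klf9 and Klf15 lie to the left.

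Klf6, an injury-inducible factor, had the largest log2 fold change of the 9 genes at 30 min, close to that of Klf5 (1.82, SE 0.24). By the ratio to the sham mean, Klf6 came after Klf5 (7.44), Klf4 (4.57) and Klf10 (4.20). The sham kidneys held 9.62, 12.6 and 14.0 FPKM, and the 15 kidneys from 16 to 24 min lay between 9.43 and 25.4 FPKM, overlapping the sham group. The 26 min kidneys held 16.0, 24.9 and 38.8 FPKM, the 28 min kidneys 30.8, 32.2 and 33.2 FPKM, and the 30 min kidneys 43.1, 54.2 and 52.5 FPKM. The 26 min group was wide, its highest kidney standing above all the 28 min kidneys, whereas the 30 min kidneys were above all others. Klf6 differed by 0.17 (SE 0.29) on the log2 scale at 16 min, and rose by 0.89 (SE 0.29) at 26 min (adjusted p = 0.0232), by 1.21 at 28 min (adjusted p = 0.00151) and by 1.91 at 30 min (adjusted p = 1.16e-05), 4.13 times the sham mean. The call at 26 min was lost without 26 min replicate 3 (0.58, adjusted p = 0.156), without 26 min replicate 2 (adjusted p = 0.0528) and without 0 min replicate 1 (adjusted p = 0.0961). Klf6 was the only member that was a DEG between the 28 and 30 min kidneys and the 16 to 26 min kidneys, with a rise of 1.15 (SE 0.17, adjusted p = 6.48e-06).

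Klf10, first described as a TGF-beta inducible early gene, was higher from the shortest time on. The sham kidneys held 3.79, 3.56 and 2.63 FPKM, the 16 min kidneys 5.34, 9.64 and 4.64 FPKM, and the 15 kidneys from 18 to 26 min lay between 5.04 and 8.68 FPKM. The 28 min kidneys held 10.8, 9.33 and 11.1 FPKM and the 30 min kidneys 12.6, 15.4 and 13.9 FPKM. All 24 clamped kidneys were above all 3 sham kidneys, and the share of all genes that lay apart in this way was not counted. Klf10 rose by 0.63 (SE 0.18) at 16 min (adjusted p = 0.0214), by 1.25 at 28 min (adjusted p = 1.27e-05) and by 1.67 at 30 min (adjusted p = 2.4e-07) on the log2 scale. It passed the test at 16, 18, 24, 26, 28 and 30 min and not at 20 min (0.46, adjusted p = 0.0813) or 22 min (0.43, adjusted p = 0.0888). The call at 16 min was lost without 16 min replicate 2 (0.36, adjusted p = 0.169) and without 0 min replicate 3 (0.50, adjusted p = 0.0953). At 18 min it was lost without 0 min replicate 3 (adjusted p = 0.0579), and at 26 min without 0 min replicate 3 (adjusted p = 0.0801) or 26 min replicate 2 (adjusted p = 0.111).

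Klf5, a factor of proliferating and collecting duct epithelium, had the lowest level and the largest ratio of means. The sham kidneys held 0.82, 0.73 and 0.90 FPKM, and the 18 kidneys from 16 to 26 min lay between 0.87 and 3.25 FPKM, with single kidneys near the sham level at 16, 18 and 26 min. The 28 min kidneys held 4.29, 4.25 and 4.33 FPKM and the 30 min kidneys 6.69, 5.39 and 6.15 FPKM. All 6 kidneys at 28 and 30 min were above all 18 kidneys from 16 to 26 min, which held for no other member, and 14.7% of all genes had non-overlapping values in this comparison. Klf5 passed the test at 22 min (0.90, SE 0.24, adjusted p = 0.00818) and 24 min (0.78, adjusted p = 0.0194), and rose by 1.42 at 28 min (adjusted p = 6.45e-05) and 1.82 at 30 min (adjusted p = 2.5e-06). At 24 min the call was lost without 24 min replicate 1 (adjusted p = 0.09) or 0 min replicate 2 (adjusted p = 0.0565). It passed at 16 min without replicate 3 (0.85, adjusted p = 0.0121) and at 18 min without replicate 2 (0.72, adjusted p = 0.0427), the lowest kidneys of those groups. The pseudocount of 1 FPKM damps the fold change of so low a gene, and the mean at 30 min was 7.44 times the sham mean.

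TGF-beta pathway genes were mostly higher at the longer times. Of 8 listed genes, 1 was higher and 1 was lower at 16 min, against 9.43% and 9.61% of all genes, 5 were higher at 28 min, when 24.5% of all genes were, and 7 were higher at 30 min, when 26.9% were. The ligand gene Tgfb1 rose by 0.89 (SE 0.20) at 16 min and by 1.304 at 30 min. The receptor gene Tgfbr1 held 9.39, 9.28 and 10.3 FPKM in sham kidneys and 20.5, 21.9 and 40.1 FPKM at 30 min, and rose by 1.28 (SE 0.17, adjusted p = 2.4e-06). Tgfbr2 rose by 0.99, the signal transducer genes Smad2 and Smad3 by 0.34 and 0.58, and the inhibitor genes Smad7 and Skil by 0.28 and 0.43 at 30 min. Among 6 cell cycle genes tied to Klf4, Klf5 or Klf6, 3 were higher and 1 was lower at 30 min, against 26.9% and 25.4% of all genes. The cell cycle inhibitor gene Cdkn1a, a target of Klf4 and Klf6, held 8.93, 7.32 and 8.28 FPKM in sham kidneys, 50.3, 40.8 and 48.9 FPKM at 28 min and 62.3, 84.8 and 110 FPKM at 30 min, and rose by 3.17 (SE 0.38, adjusted p = 7.17e-07). Cdkn1c rose by 1.18 and Pdgfa, a target of Klf5, by 1.42 at 30 min, while Cdkn1b fell by 0.26. Ccnb1 rose by 1.65 at 16 min and differed by 0.52 (SE 0.39) at 30 min.

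Klf2, the flow-induced factor of endothelium, was a DEG at 30 min alone. The sham kidneys held 5.55, 7.41 and 9.6 FPKM, and the 21 kidneys from 16 to 28 min lay between 6.78 and 13.3 FPKM. The 30 min kidneys held 14.2, 21.9 and 30.9 FPKM, all above every other kidney, with a wide spread. Klf2 differed by 0.41 (SE 0.23, adjusted p = 0.162) at 28 min and rose by 1.33 (SE 0.23, adjusted p = 6.94e-05) at 30 min, 2.97 times the sham mean. Without 30 min replicate 3 the rise at 30 min was 1.06 (adjusted p = 0.000695). Between 30 and 28 min it rose by 0.92 (SE 0.23, adjusted p = 0.0138), and this call was lost without 30 min replicate 3 (0.65, adjusted p = 0.11) and without 28 min replicate 1 (0.82, adjusted p = 0.0529).

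Klf4 had tight sham values of 2.90, 3.03 and 3.04 FPKM, below all 24 clamped kidneys, a separation not counted over all genes. The 15 kidneys from 16 to 24 min lay between 3.54 and 5.39 FPKM, the 26 min kidneys held 5.87, 5.47 and 6.51 FPKM, the 28 min kidneys 8.67, 7.34 and 6.11 FPKM, and the 30 min kidneys 9.32, 12.1 and 19.6 FPKM. Only the 30 min kidneys were above all kidneys of the other times. Klf4 rose by 0.65 (SE 0.17) at 26 min (adjusted p = 0.00756), by 0.92 at 28 min (adjusted p = 0.000191) and by 1.70 at 30 min (adjusted p = 9.04e-08) on the log2 scale. Over 16 to 26 min together it rose by 0.40 (SE 0.13, adjusted p = 0.0219), a call that was lost without any 1 of the sham kidneys (adjusted p from 0.0615 to 0.0856). Without 30 min replicate 3, the rise at 30 min was 1.42 (adjusted p = 1.21e-07).

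Upstream of these factors, the kinase gene Mapk7 (ERK5) rose by 0.30 (SE 0.10) at 16 min, by 0.69 at 28 min and by 0.86 at 30 min. Mef2d, like Mef2a and Mef2c, encodes a MEF2 transcription factor upstream of Klf2 and Klf4. Mef2d rose by 0.68 at 28 min and by 0.99 (SE 0.08, adjusted p = 8.64e-09) at 30 min. Map2k5, Mef2a and Mef2c did not pass the test at these times, so 2 of 5 genes were higher at 28 and 30 min, against 24.5% and 26.9% of all genes. Of 4 endothelial genes that Klf2 or Klf4 turn on, 1 was higher at 16 min (9.43% of all genes were), 2 were higher and 1 lower at 28 min (24.5% and 23.6% of all genes), and 3 were higher at 30 min (26.9% of all genes). The thrombomodulin gene Thbd held 3.89, 3.97 and 4.71 FPKM in sham kidneys, 11.3, 11.2 and 10.5 FPKM at 28 min and 17.2, 24.7 and 25.9 FPKM at 30 min, and rose by 2.05 (SE 0.14, adjusted p = 6.21e-10). The nitric oxide synthase gene Nos3 held 1.98, 1.94 and 1.91 FPKM in sham kidneys and 4.73, 7.29 and 6.65 FPKM at 30 min, and rose by 1.13. S1pr1, the sphingosine phosphate receptor, differed by 0.01 (SE 0.18) at 28 min and rose by 1.10 at 30 min. Tek fell by 0.47 at 28 min and differed by -0.30 (SE 0.18, adjusted p = 0.185) at 30 min.

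Among the endothelial genes reported here that Klf2 or Klf4 hold down, Angpt2 alone fell at 30 min. Edn1, the endothelin gene, held 1.23, 1.02 and 1.47 FPKM in sham kidneys, 2.84, 3.39 and 3.75 FPKM at 28 min and 4.79, 8.91 and 7.67 FPKM at 30 min, with no overlap between sham and either group, and rose by 0.81 (SE 0.23, adjusted p = 0.00591) at 28 min and by 1.68 (adjusted p = 3.56e-06) at 30 min. At 30 min the selectin gene Sele rose by 0.18 from 0.06 FPKM, and Angpt2 fell by 0.90. The adhesion gene Vcam1 rose by 1.39 at 28 min and differed by 1.11 (SE 0.53, adjusted p = 0.085) at 30 min, and Icam1 differed by 0.68 (SE 0.33, adjusted p = 0.0917). Without 30 min replicate 3, Thbd, Nos3, S1pr1, Edn1 and Sele still passed at 30 min, and Angpt2 did not (-0.995, adjusted p = 0.0558). Some endothelial markers, but not all, passed the test as higher at 30 min, when Klf2 was a DEG. The summed FPKM of Pecam1, Cdh5, Kdr, Emcn and Tie1 was 69.8 ± 6.26 at 0 min, 72.2 ± 7.24 at 28 min and 114 ± 25.5 at 30 min (from 85.8 to 135 FPKM), and 3 of the 5 passed the test as higher at 30 min, when 26.9% of all genes did: Pecam1 (0.87), Cdh5 (0.78) and Emcn (0.58). Kdr and Tie1 were not among them. Without 30 min replicate 3, Kdr differed by 0.16 (adjusted p = 0.696) and Tie1 by -0.11 (adjusted p = 0.565), while Pecam1, Cdh5 and Emcn still passed. The podocyte markers Synpo, Podxl and Wt1 passed the test as higher at 30 min. Of these 3, Synpo alone passed without 30 min replicate 3. None of the 5 endothelial markers was at 0 throughout a group. The part of these markers in the levels of Klf2 and Klf4 was not tested.

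Klf3, a repressor that acts through CtBP, and Klf13, a close relative of Klf9, had the smallest changes at 30 min among the members that rose then. Klf3 held 17.0, 13.1 and 13.5 FPKM in sham kidneys, between 13.3 and 19.9 FPKM in the 18 kidneys from 16 to 26 min, 19.3, 20.9 and 19.5 FPKM at 28 min and 20.8, 20.0 and 25.3 FPKM at 30 min. Klf3 passed the test at 30 min alone, rising by 0.47 (SE 0.13, adjusted p = 0.00391), and differed by 0.28 (adjusted p = 0.0712) at 28 min, where it passed without quantile normalization (0.44, adjusted p = 0.00784) and without 0 min replicate 1 (0.39, adjusted p = 0.0233). Klf13 held 6.56, 6.93 and 5.97 FPKM in sham kidneys, between 6.81 and 9.99 FPKM from 16 to 26 min, 12.4, 10.2 and 9.41 FPKM at 28 min and 11.1, 14.1 and 20.7 FPKM at 30 min. It rose by 0.50 (SE 0.14, adjusted p = 0.00605) at 28 min and by 0.98 (adjusted p = 7.63e-06) at 30 min, just below the threshold for a DEG, and the rise at 30 min without replicate 3 was 0.75 (adjusted p = 1.53e-05). Its rise at 26 min (0.38, adjusted p = 0.0479) was lost when any 1 of the 6 kidneys compared was left out, with adjusted p-values from 0.0593 to 0.149. Among 10 cofactors and turnover genes of the family, 5 were higher and 2 lower at 28 min, against 24.5% and 23.6% of all genes, and 4 were higher and 3 lower at 30 min, against 26.9% and 25.4%. The corepressor genes Ctbp1 and Ctbp2 rose by 0.46 and 0.52 at 30 min, and Hdac1 by 0.24. The acetyltransferase gene Kat2b fell by 0.73, and the ubiquitin ligase gene Wwp1, which acts on Klf2 and Klf5, fell by 0.37.

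The steps between the longest times were tested directly. Between 28 and 26 min, 3 members passed the test, against 19.3% of all genes, and 0 were DEGs, against 1.50%. Klf5 rose by 0.997 (SE 0.24, adjusted p = 0.00662), Klf10 rose by 0.64 (SE 0.18, adjusted p = 0.0197) and Klf15 fell by 0.49 (SE 0.16, adjusted p = 0.0384). The calls of Klf10 and Klf15 were each lost in 4 of the 6 fits that left out 1 kidney, with adjusted p-values up to 0.101 without 26 min replicate 1 for Klf10 and up to 0.152 without 28 min replicate 3 for Klf15, and the call of Klf5 was lost without 26 min replicate 2 (0.75, adjusted p = 0.0555). Between 30 and 28 min, 3 members passed, against 13.2% of all genes, and 0 were DEGs, against 1.05%. These were Klf2, Klf4 (0.78, SE 0.17, adjusted p = 0.0064) and Klf13 (0.48, SE 0.14, adjusted p = 0.0309), and the call of Klf13 was lost without 30 min replicate 3 (0.25, adjusted p = 0.226) as well as without 28 min replicate 2 or 3 or 30 min replicate 2. None of the 6 calls at these steps was made when the 2 groups were fitted alone.

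Over 16 to 26 min together, 5 members passed the test against 0 min (Klf4, Klf5 and Klf10 higher, Klf9 and Klf15 lower), against 38.2% of all genes, and 0 were DEGs, against 2.96%. Between the 6 kidneys at 28 and 30 min and the 18 kidneys from 16 to 26 min, 8 members passed, all but Klf9, against 52.1%, and 1 was a DEG, against 3.67%. Within 16 to 26 min, no member had a slope per minute that passed the test, against 0.0110% of all genes, in limma with adjustment over all genes. Klf6 (0.067 per min, SE 0.024, adjusted p = 0.484) and Klf4 (0.034 per min, SE 0.015, adjusted p = 0.552) were the 2 members with an unadjusted p-value under 0.05.

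The other Kruppel-like factor genes and the related Sp genes were counted in the same way. Of 8 other Kruppel-like factor genes, 1 was lower at 16 min (Klf1, when 9.61% of all genes were), 1 was higher and 2 were lower at 28 min, against 24.5% and 23.6% of all genes, and 4 were higher and 2 were lower at 30 min, against 26.9% and 25.4%. Klf11, the closest relative of Klf10, held 3.08, 3.73 and 2.03 FPKM in sham kidneys and 5.85, 8.11 and 9.15 FPKM at 30 min, and was the only DEG among them (1.01, SE 0.20, adjusted p = 0.000196). Without 30 min replicate 3 its rise was 0.90 (adjusted p = 0.00184), no longer a DEG. Klf7 rose by 0.69, Klf16 by 0.54 and Klf8 by 0.18 at 30 min, and Klf1, the erythroid member, fell by 0.89 and Klf12 by 0.33. Klf14 and Klf17 had means of at most 0.02 FPKM at 0, 26, 28 and 30 min. Of 9 Sp genes, 8 were tested, and 1 was higher (Sp2, 0.33) and 1 lower (Sp5, -0.56) at 30 min, against the same 26.9% and 25.4% of all genes. Without 30 min replicate 3, Klf8 and Sp2 did not pass (adjusted p = 0.0621 and 0.0625), and Sp4 was lower as well (-0.20, adjusted p = 0.0495). Sp1 differed by -0.07 (SE 0.06) and Sp3 by -0.02 (SE 0.09) at 30 min.

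Members also differed in how they varied among kidneys of 1 ischemia time. After the mean of each time was subtracted, Klf4 and Klf13 had the highest correlation of the 36 pairs (r = 0.79 over 27 kidneys), and Klf9 and Klf15 the second highest (r = 0.76). Klf6 and Klf15 had the lowest (r = -0.62), and Klf5 and Klf15 had r = -0.54. Klf2 and Klf15 were positive within times (r = 0.58) and negative over all 27 kidneys (r = -0.42). Klf5 and Klf10 had r = 0.77 over all kidneys and r = 0.01 within times. These values describe kidneys that share a normalization, and 30 min replicate 3 was the highest kidney for Klf2, Klf4 and Klf13.

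**Figure D5:**
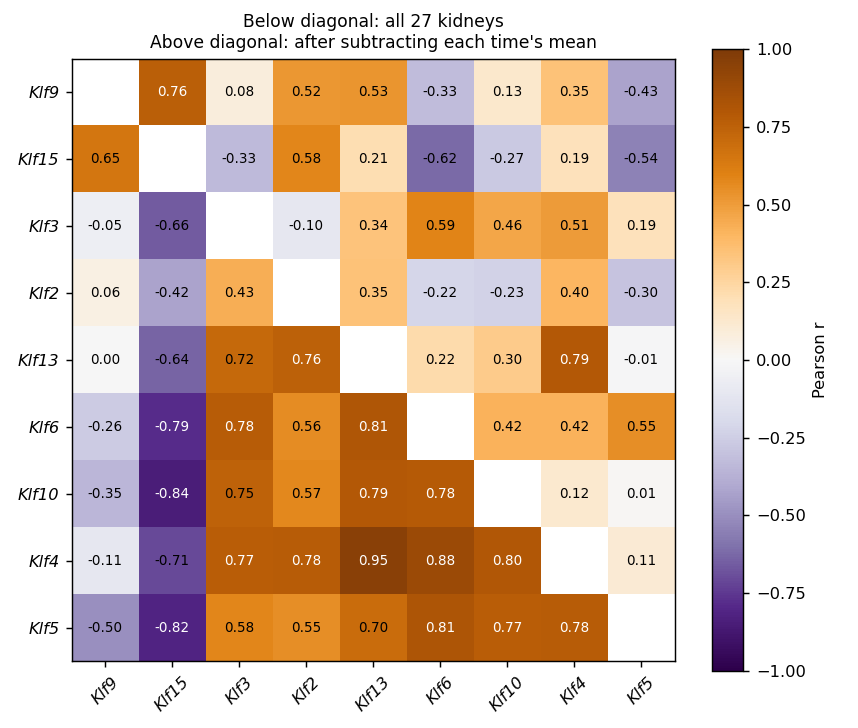
Pearson correlation between members on the quantile normalized log2(FPKM + 1) scale over the 27 kidneys, below the diagonal as measured and above it after subtracting the mean of each ischemia time. Klf4 and Klf13 correlate at 0.95 below and 0.79 above the diagonal, while Klf5 and Klf10 go from 0.77 to 0.01.

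For each member, the genes with the most similar values over the 27 kidneys were sought among 12346 genes with a mean of at least 1 FPKM. Klf6 was most like Fosl2, an AP-1 subunit gene (r = 0.97), followed by the anti-apoptotic gene Mcl1 and by Samd4. With Fosl2, Klf6 had r = 0.94 within 16 to 26 min (18 kidneys) and r = 0.89 after subtracting the mean of each time. These are the same kidneys in which Fosl2 was found, so they are no separate check. Klf5 was most like the integrin genes Itgb4 (r = 0.96) and Itga3 (r = 0.95) and the receptor gene Gprc5a (r = 0.95). Klf15 was most like Idh2, the mitochondrial isocitrate dehydrogenase gene (r = 0.96), Ccdc85c and BC034090 (both r = 0.95).

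Klf10 was most like the tubulin gene Tuba1c (r = 0.94), the TGF-beta target Pmepa1 (r = 0.94) and the actin gene Actb (r = 0.92). Klf4 was most like Cdc42se2, Map3k6 and Tmem63b (each r = 0.96), and Klf13 like Map3k6, Spsb1 (both r = 0.95) and Lpin3 (r = 0.94), so that the stress kinase gene Map3k6 was near both. Klf2 was most like Vasn (r = 0.91), the laminin gene Lamb2 (r = 0.88) and Tcim (r = 0.86), Klf3 like Fubp3 (r = 0.88), Osbpl10 and Mast4 (both r = 0.87), and Klf9 like Tox3, the sphingomyelin synthase gene Sgms2 (both r = 0.89) and Malrd1 (r = 0.87). Within 16 to 26 min alone these correlations ranged from 0.45 for Klf13 with Lpin3 to 0.94 for Klf6 with Fosl2.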

How the data were processed

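RNA-Seq was performed on the DNBSEQ-G400 platform with total RNA of 27 left kidneys, 3 mice at each of 9 ischemia times, grouped by the sample titles. The deposited table holds FPKM values made by the authors for 19392 genes, with no counts. The submitters' processing notes name Bowtie2, RSEM, DESeq2 and the build GRCm38.p6, without versions or roles. The number of reads per kidney is unknown, so precision was judged from the spread among kidneys.

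Values were transformed to log2(FPKM + 1) and quantile normalized. Genes above 0 FPKM in at least 3 kidneys were kept (18188), and limma 3.58.1 (R 4.3.3) with eBayes was fitted to all 27 kidneys with 1 mean for each time. The tests were two-sided, with Benjamini-Hochberg adjustment over all tested genes, and the fold changes of low genes are understated by the pseudocount. The scripts were tested on simulated data. Figures were drawn with matplotlib 3.10.9.

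The named genes were the 9 members, every gene of the lists, and the 3 non-member genes most correlated with each member among genes with a mean of at least 1 FPKM. Some genes of the lists, and the counts and sums that rest on them, are not reported here. The members and lists were chosen with earlier results of these data known. Alternatives were a smaller pseudocount (0.1 FPKM), leaving out the quantile step, rescaling to a constant sum, other filters, eBayes with a trend, a replicate block, the 2 compared groups alone, and leaving out each kidney in turn. List counts without 30 min replicate 3 were added after seeing the data. Promoter sequences are from RefSeq (GRCm38.p6). Protein sequences were not used here.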

Additional observations from a re-analysis of the deposited data

How the results depend on the processing

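Counts of members are given here as DEGs or as members that passed the adjusted p-value. The share of all genes was not counted under the alternatives or with kidneys left out. A change in these counts can therefore not be told apart from a change over all genes. With a pseudocount of 0.1 FPKM, DEGs became 1 (Klf5) at 20, 22 and 24 min against 0 min and between 28 and 26 min, and 3 (Klf4, Klf5 and Klf6) between 28 and 30 min and 16 to 26 min. Without quantile normalization, 1 DEG was found at 22 min (Klf5) and 1 at 26 min (Klf6), and 5 members passed at 22 min. After rescaling to a constant sum, DEGs were 1 at 22 min, 2 at 24 min (Klf5 and Klf10), 1 at 26 min (Klf6), 1 between 28 and 26 min (Klf5) and 2 between the longer and shorter times (Klf5 and Klf6). With a filter of 1 FPKM in 3 kidneys, 1 DEG was found between 28 and 26 min. With the 2 groups fitted alone, 0 members passed at 16 min, 4 at 20 min, 3 at 26 min, and 0 between 28 and 26 min and between 30 and 28 min. Klf3 turned to 0.10 at 24 min and to 0.0923 and 0.0945 over 16 to 26 min, without quantile normalization and with a constant sum. The causes were not tested.

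With single kidneys left out, 1 to 4 members passed at 16 min, 0 to 2 at 20 min, 3 to 4 at 26 min, 1 to 3 between 28 and 26 min and 1 to 3 between 30 and 28 min. DEGs ranged from 0 to 1 at 22 min, at 26 min and between 28 and 26 min, from 0 to 2 between 30 and 28 min, and from 1 to 2 between the longer and shorter times, and stayed at 4 to 5 at 28 min and 6 to 7 at 30 min. Signs turned for Klf2 at 16 min (-0.13 to 0.26), for Klf3 at 16 min (-0.11 to 0.14), 18 min (-0.0326 to 0.13), 20 min (-0.16 to 0.00715), 24 min (-0.11 to 0.0915) and over 16 to 26 min (-0.0703 to 0.0938), for Klf6 at 16 min (-0.18 to 0.44) and 18 min (-0.0213 to 0.23), for Klf15 between 30 and 28 min (-0.21 to 0.0043), and for Klf9 between the longer and shorter times (-0.17 to 0.0081). The slopes per minute also turned for Klf3 (-0.00399 to 0.0141), Klf5 (-0.0142 to 0.0229), Klf9 (-0.000322 to 0.0243), Klf10 (-0.0104 to 0.0237) and Klf15 (-0.00714 to 0.0216).

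Replicate numbers did not pair the kidneys: over 108 pairs of same-numbered kidneys of different times, deviations from the group means correlated at 0.00868 on average (-0.416 to 0.48). With the replicate block, 1 member (Klf15) passed at 20 min, and the adjusted p-value was 0.0507 for Klf9 at 20 min, 0.0619 for Klf13 at 26 min and 0.0602 for the F test of Klf9. Of 126 member results, 123 kept their direction and side of the threshold with the block, 114 without quantile normalization and 112 with a constant sum.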

Other observations

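Kidney 16 min replicate 3 had the lowest Klf5 (1.01 FPKM), Klf6 (9.43 FPKM) and Klf10 (4.64 FPKM) of its group and the highest Klf2 (11.8 FPKM), Klf9 (37.6 FPKM) and Klf15 (37.7 FPKM). Its Lcn2 was 31.4 FPKM, against 388 and 410 FPKM in the other kidneys at 16 min, and among sham kidneys replicate 3 had 22.0 FPKM of Havcr1 against 2.81 and 2.49 FPKM. Kidney 30 min replicate 3 had the highest Klf2, Klf3, Klf4, Klf9, Klf13 and Klf15 of its group, and 3921 FPKM of Lcn2 against 1213 and 2139 FPKM.

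Summed neutrophil markers (S100a8, S100a9, Csf3r, Cxcr2, Retnlg) were 8.75 ± 3.18 FPKM (SD, n = 3) at 0 min, 16.6 ± 2.24 FPKM at 28 min and 25.7 ± 4.08 FPKM at 30 min. Thick ascending limb and distal tubule markers (Umod, Slc12a1, Slc12a3, Kcnj1) were 1972 ± 88.7 FPKM at 0 min and ranged from 623 to 2406 FPKM at 30 min.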
